A study of Mus musculus with 8 samples.

Results

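The genes described here carry proteins into the endoplasmic reticulum (ER), fold them there, remove those that fail to fold, and move them on toward the Golgi. They were chosen by name and known function, with earlier results of these data known. All 43 were found among the 24197 genes of the deposited table. They comprise 11 chaperones and folding helpers, 4 protein disulfide isomerases, 10 genes of ER-associated degradation (ERAD), 7 sensors or membrane-bound and downstream transcription factors of the unfolded protein response (UPR), and 11 genes of the translocon, the signal peptidase and the COPII coat. Their RNA was followed in the liver of male CD-1 mice hypophysectomized (freed of the pituitary) when 7 weeks old and used when 11 weeks old. Without a pituitary these mice make no growth hormone (GH) of their own. The control group, called Hypox, is described as untreated in one place of the labels and as given vehicle in another. The other groups received 1 intraperitoneal injection of recombinant rat GH at 125 ng per g body weight and were killed 30, 90 or 240 min later (GH30, GH90 and GH240). The labels give no time for Hypox, and there is no separate control for each GH time. An effect of GH and an effect of handling or of time thus cannot be told apart. Every group lacks the other pituitary hormones too, so it models a liver with no pituitary input before the pulse. Each group has 2 libraries of ribosome-depleted, strand-specific total RNA, each made from pooled livers (4 animals per pool by the table's legend).

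Secretory hepatocytes push most of the proteins of blood plasma through the ER. Chaperones such as BiP bind unfolded chains, disulfide isomerases pair their cysteines, and ERAD pulls terminally misfolded proteins back to the cytosol for the proteasome. When unfolded chains accumulate, the sensors ATF6 and IRE1 signal to the nucleus. ATF6 is cut in the Golgi, and IRE1 splices the XBP1 mRNA, so that active ATF6 and XBP1 raise the genes of chaperones, ERAD and secretion. GH acts on hepatocytes mainly through the transcription factor STAT5b.

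The deposited table holds only each group's mean FPKM (reads scaled to transcript length and to the total mapped). The whole-read counts behind each mean could be recovered, because a mean of 2 libraries is a sum of whole reads over 2 library totals. Reads were recovered for 18357 of the 18359 genes above 0 in gene-body reads and for 16089 of 17098 (94.1%) in intronic reads. The libraries held between 15935303 and 34452570 mapped reads, and 25 to 26.6% of these fell in exons of listed genes, a share that rests on gene lengths inferred by the same arithmetic. The recovered libraries carry no pool number, so each group's are called the deeper and the shallower one. One Hypox sample's name begins with G141 and the other samples' names with G142, and what this marks is not stated. Values are given as scaled CPM (a gene's reads relative to all mapped reads of its library, on the usual CPM scale, divided by a median-of-ratios factor). Changes are log2 differences of CPM + 0.1 between group means ± SE, tested with limma over 13168 genes for exonic reads and 12238 for intronic reads, and a gene is called at a Benjamini-Hochberg adjusted p under 0.05. The p-values rest on 2 pools a group and measure the spread between pools.

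The Hypox libraries stood apart from each other in the members' introns. In 40 of the 42 members tested, intronic CPM was higher in the deeper than in the shallower Hypox library, by a median of 0.68 on the log2 scale. Over all genes tested, 47.3% were higher in the deeper library and the median difference was -0.02. In exonic reads 26 of 42 members were higher in the deeper Hypox library, against 48% of all genes, with a median difference of 0.08. Members leaned to 1 side within other groups too, by smaller medians than in Hypox introns. In exonic reads 7 of 42 were higher in the deeper GH30 library (median -0.16), against 50.3% of all genes. In the deeper GH90 library 9 were higher (-0.12), against 50.2% of all genes. In intronic reads 8 were higher in the deeper GH90 library (-0.16), against 51.5% of all genes. In the deeper GH240 library 30 were higher in intronic reads (0.17), against 48.2% of all genes. Counts of members are thus not counts of independent genes. Leaving out the shallower Hypox library ended all 31 intronic calls of members against Hypox at 240 min that are given below, and leaving out the deeper one again gave 31. The shallower GH30 library stood apart in reads of the ribosomal RNA precursor Rn45s, with 21200 CPM against 5970 to 11500 CPM in the other libraries, and the calls at 30 min are given without it too.

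No member was called in mature RNA at 30 or 90 min, and 26 were called higher at 240 min. Xbp1 at 90 min, 2.16-fold above Hypox and not called, is described with its introns. In exonic reads 0 of the 42 members tested were called at 30 min, with 0 at an unadjusted p under 0.05. Over all genes 0.0532% were called higher and 0.0152% lower at that time. At 90 min again 0 of 42 were called, with 3 at an unadjusted p under 0.05, against 0.63% of all genes called higher and 0.213% lower. The voom form of limma also called 0 members at both times. At 240 min 26 of 42 members rose and 0 fell, against 5.71% of all genes called higher and 5.54% called lower. The members' median log2 change was 0.03 at 30 min, -0.01 at 90 min and 0.53 at 240 min, beside all-gene medians of -0.01, -0.02 and -0.03. Both GH240 libraries lay above both Hypox libraries in 35 of 42 members and below both in 2, Sel1l and Creb3l3. For all genes these shares were 26.1% and 29.9%. The comparisons against Hypox share the Hypox libraries. In bulk liver, fewer cells of a type and less RNA per cell cannot be told apart.

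Of the 26 members that rose, 13 were at least 2-fold higher at 240 min, against 1.63% of all genes that were called and at least 2-fold higher. These were Hspa5, Hyou1, Dnajb9, Dnajb11, Creld2, Manf, Sdf2l1, Syvn1, Xbp1, Atf6b, Wfs1, Sec23b and Sec24d. Leaving out 1 library lowered the count of 26: to 15 or 8 with the deeper or the shallower Hypox library left out, and to 19 or 11 with the deeper or the shallower GH240 library left out. Over all genes the 752 higher calls dropped to between 206 and 498 in the same fits. The members called in each of these 4 fits were Hspa5, Hyou1, Dnajb9, Dnajb11, Creld2, Manf, Ssr1 and Spcs2. A fit of the GH240 and Hypox libraries alone called 17. Scaled by library totals alone, 28 members rose, and 65.3% of all calls over all genes were higher, against 50.8%.

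**Figure D1:**
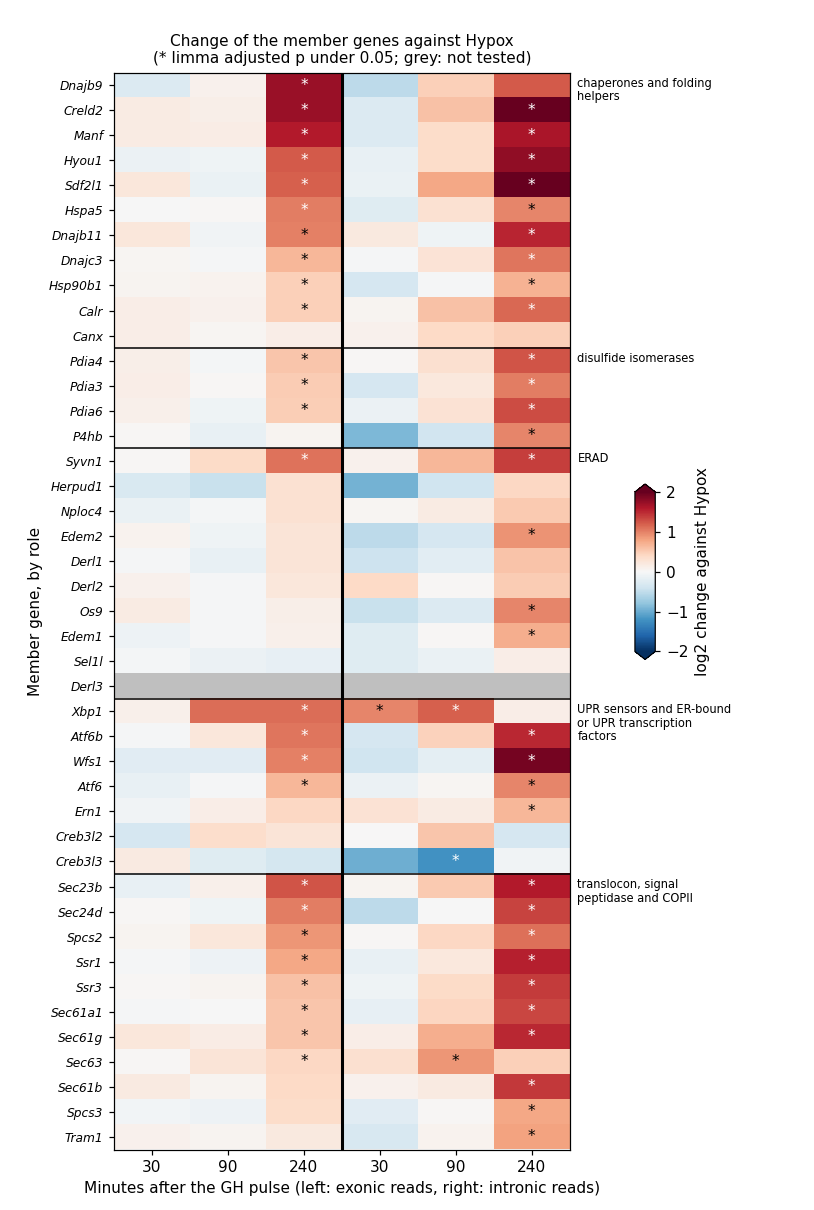
Log2 change of each member against Hypox at 30, 90 and 240 min, in exonic reads (left 3 columns) and intronic reads (right 3 columns), with members grouped by role and sorted by their exonic change at 240 min. Colour is capped at 2, an asterisk marks a limma adjusted p under 0.05, and grey marks Derl3, which was not tested; outside the 240 min columns the asterisks belong to Xbp1, Creb3l3 and Sec63.

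Promoter sequences bear on this group because the ER stress element, the site through which ATF6 and XBP1 act, is known from several of these promoters. The letters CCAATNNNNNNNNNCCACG were searched on both strands of the RefSeq promoters of GRCm38.p6, from 250 bases before to 50 after each start. Of the 43 members 36 had a promoter there. The element was found in 9 of these 36 (25%), against 0.137% of 27025 genes with a promoter. Members were chosen by known function and the element was known from several, so this comparison is no independent test. The 27025 genes also include many not tested in these livers. Of the 9, 7 rose in exonic reads at 240 min (Hspa5, Hsp90b1, Dnajc3, Creld2, Calr, Pdia6 and Syvn1), Canx was not called and Derl3 was not tested. Of all 36 members with a promoter, 22 rose, so 15 of those that rose have no such match in this window. The second ER stress element, ATTGG and CCACG with 1 base of any kind between them, was found in Dnajb11, which rose, and Herpud1, which was not called against Hypox, and in 0.0444% of genes. Their shared core CCACG, contained in both, occurred in 27 of 36 members (75%) and in 35.5% of genes. The UPR element TGACGTGG was found in 1 member, Sec24d, and 0.714% of genes. The STAT5 letters TTCNNNGAA were found in 3 members, Edem2, Sec61g and Sec23b (8.33%), and in 9.55% of genes. A match is a run of letters and not evidence of binding.

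The matches upstream of the start site, other than that of Derl3, are given here with GRCm38.p6 coordinates on the gene's strand with 20 bases on either side, to show the bases around it in members that rose and in Canx and Herpud1, which were not called. The search itself fixes the spacing of its 2 parts. Capitals mark the match. In Hsp90b1 (proximal copy), Creld2 and Calr it reads in the opposite direction, so the capitals begin with CGTGG and end with ATTGG. The match in Dnajb11 reaches past the start site and is not shown.
Hspa5, chr2:34772005-34772063, plus strand: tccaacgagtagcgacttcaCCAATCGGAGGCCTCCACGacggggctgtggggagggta
Hsp90b1 distal copy, chr10:86705618-86705676, minus strand: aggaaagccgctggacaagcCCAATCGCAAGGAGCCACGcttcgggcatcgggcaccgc
Hsp90b1 proximal copy, chr10:86705513-86705571, minus strand: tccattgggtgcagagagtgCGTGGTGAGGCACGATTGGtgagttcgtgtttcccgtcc
Dnajc3, chr14:118937807-118937865, plus strand: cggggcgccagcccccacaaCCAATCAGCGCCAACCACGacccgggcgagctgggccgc
Creld2, chr15:88819500-88819558, plus strand: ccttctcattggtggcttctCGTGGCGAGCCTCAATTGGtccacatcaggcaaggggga
Calr, chr8:84847055-84847113, minus strand: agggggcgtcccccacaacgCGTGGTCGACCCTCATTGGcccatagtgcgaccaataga
Pdia6, chr12:17266471-17266529, plus strand: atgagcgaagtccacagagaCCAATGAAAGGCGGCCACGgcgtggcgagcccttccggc
Syvn1, chr19:6046512-6046570, plus strand: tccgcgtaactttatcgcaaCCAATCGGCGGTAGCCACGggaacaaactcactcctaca
Canx, chr11:50325780-50325838, minus strand: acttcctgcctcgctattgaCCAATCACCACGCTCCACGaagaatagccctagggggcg
Herpud1, second element, chr8:94386357-94386407, plus strand: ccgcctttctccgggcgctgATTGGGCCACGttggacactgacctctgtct
The match ended 25 bases before the start site in Syvn1, 46 bases before it in Hspa5, 107 in Creld2, 126 in Canx and 143 in Calr.

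Of the 11 chaperones and folding helpers, 10 rose in exonic reads at 240 min, against 5.71% of all genes, with log2 changes of 0.14 to 1.73 over the group and a median of 1.02. Hspa5 encodes BiP, the ER's Hsp70 chaperone, and lies at chr2:34627610-34632049 in mm9. It had 140 and 140 CPM in Hypox libraries, 130 and 148 at 30 min, 135 and 152 at 90 min, then 278 and 288 at 240 min. The 6 libraries before 240 min overlap, and both GH240 libraries stand well above them. The change at 240 min was 1.02 ± 0.12 (limma adjusted p = 0.00136). Per length, Hspa5 averaged 108 scaled FPKM at 240 min and 53.5 in Hypox livers, and among the members only P4hb was higher at 240 min (114, against 110 in Hypox livers).

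Creld2, an ER-resident folding factor known as an ER stress gene, had 4.44 and 3.76 CPM in Hypox libraries, 4.88 and 4.34 at 30 min, 4.38 and 4.48 at 90 min, then 11.9 and 16 at 240 min. Its change of 1.73 ± 0.18 had the smallest adjusted p of the members (0.000954). Dnajb9 encodes ERdj4, a co-chaperone of BiP. It had 24.6 and 14.8 CPM in Hypox libraries, 16.3 and 15.2 at 30 min, 19.4 and 21.1 at 90 min, then 63.1 and 63.8 at 240 min, a change of 1.73 ± 0.19 (adjusted p = 0.00128). The GH240 libraries of Dnajb9 were nearly equal, while its Hypox libraries differed. Manf, an ER protein that binds BiP and can be secreted, had 12.6 and 10.2 CPM in Hypox libraries, 11.6 and 13.9 at 30 min, 10.8 and 14.7 at 90 min, then 31.4 and 37.4 at 240 min (1.59 ± 0.18, adjusted p = 0.00128). These 3 genes had the largest exonic changes at 240 min among the 42 members tested.

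Hyou1 encodes the large ER chaperone GRP170, a nucleotide exchange factor of BiP. It had 53.7 and 40.7 CPM in Hypox libraries, 38.5 and 47.8 at 30 min, 39.8 and 49.4 at 90 min, then 94.4 and 127 at 240 min (1.22 ± 0.19, adjusted p = 0.0044). Dnajb11, the co-chaperone ERdj3, had 9.43 and 11.5 CPM in Hypox libraries, 11.1 and 13.4 at 30 min, 9.91 and 9.94 at 90 min, then 19.3 and 23 at 240 min (1.00 ± 0.15, adjusted p = 0.0044). Dnajc3, the co-chaperone p58IPK, had 47.1 and 48.8 CPM in Hypox libraries, 43.8 and 55.4 at 30 min, 44.8 and 50 at 90 min, then 72.9 and 80.2 at 240 min (0.67 ± 0.13, adjusted p = 0.0117). In all 3 genes both GH240 libraries lie above the other 6. Sdf2l1, a partner of ERdj3, rested on few reads. It had 44 and 68 exonic reads in Hypox libraries and 77 and 118 at 240 min, from shallower libraries (1.20 ± 0.34, adjusted p = 0.0443).

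Hsp90b1 and Calr, both abundant, rose by under 1 on the log2 scale. Hsp90b1, the ER's Hsp90 (GRP94), had 258 and 257 CPM at 240 min, against 172 and 200 in Hypox libraries (0.48 ± 0.12, adjusted p = 0.0319). Calr encodes calreticulin, a lectin chaperone of glycoproteins, and had 102 and 121 CPM in Hypox libraries, 114 and 131 at 30 min, 120 and 115 at 90 min, then 154 and 156 at 240 min (0.48 ± 0.12, adjusted p = 0.0324). Canx, its membrane-bound relative calnexin, was not called: it had 144 and 124 CPM at 240 min and 114 and 128 in Hypox libraries, which overlap (0.14 ± 0.12, adjusted p = 0.492). The difference between the changes of Calr and Canx was not tested.

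**Figure D2:**
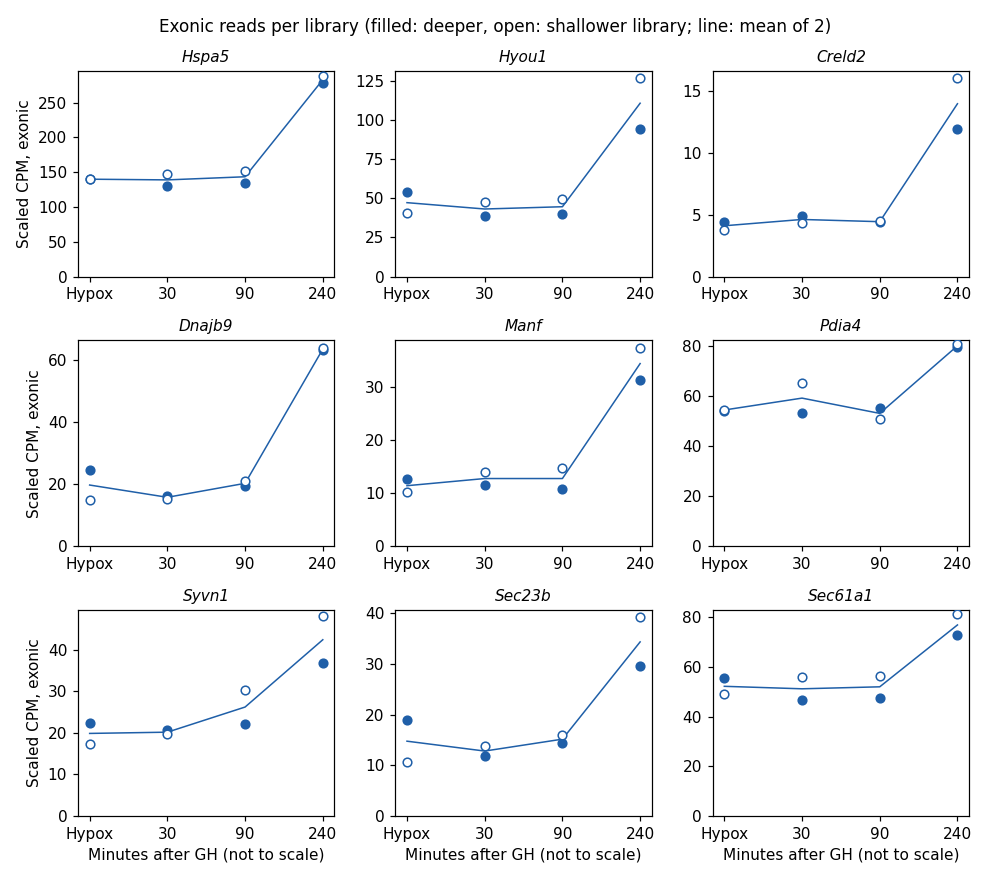
Scaled exonic CPM of 9 members in each library (y axis, from 0) by time after GH (x axis, evenly spaced and not to scale); filled points are each group's deeper library, open points the shallower one, and lines join the means of 2. In each panel both 240 min points lie above all points of Hypox, 30 and 90 min, which spread apart in some panels, as in Dnajb9, Syvn1 and Sec23b.

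Of the 4 disulfide isomerases 3 rose at 240 min, against 5.71% of all genes. Pdia4 (ERp72) had 54.2 and 54.6 CPM in Hypox libraries, 53.3 and 65 at 30 min, 55.1 and 51 at 90 min, then 79.4 and 80.7 at 240 min (0.56 ± 0.12, adjusted p = 0.0169). Pdia3 (ERp57), the isomerase that works with calnexin and calreticulin, had 66.2 and 79 CPM in Hypox libraries, 71.5 and 87.3 at 30 min, 73.2 and 74.4 at 90 min, then 98 and 108 at 240 min (0.51 ± 0.13, adjusted p = 0.036). Pdia6 (P5) had 31.2 and 32.1 CPM in Hypox libraries, 30.3 and 37.9 at 30 min, 29.4 and 30.2 at 90 min, then 44.4 and 44.8 at 240 min (0.49 ± 0.12, adjusted p = 0.0308). The GH240 libraries were above the other 6 in each of these genes. P4hb encodes the classical protein disulfide isomerase PDI, and its mature RNA was not called. It had 296 and 282 CPM at 240 min, against 289 and 268 in Hypox libraries (0.05 ± 0.12, adjusted p = 0.802).

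ERAD genes were mostly not called in mature RNA: 1 of 9 tested rose, against 5.71% of all genes, with a group median of 0.25. Syvn1, the ubiquitin ligase HRD1 at the centre of the ERAD channel, had 22.4 and 17.3 CPM in Hypox libraries, 20.7 and 19.6 at 30 min, 22.1 and 30.3 at 90 min, then 36.8 and 48 at 240 min (1.09 ± 0.19, adjusted p = 0.00639). The other 8 had log2 changes of -0.17 to 0.31. Sel1l, the adaptor of HRD1, had 42.6 and 38.1 CPM at 240 min, against 44.5 and 46.1 in Hypox libraries (-0.17 ± 0.11, adjusted p = 0.347). The difference between the changes of Syvn1 and Sel1l, which work in 1 complex, was not tested. Herpud1, a scaffold of that complex, had its lowest group mean at 90 min, with 59.4 and 50.5 CPM in Hypox libraries, 49 and 40.3 at 30 min, 37.8 and 42.4 at 90 min, then 75.1 and 61.3 at 240 min. Its change was not called at 90 min (-0.45 ± 0.15, adjusted p = 0.284) or at 240 min against Hypox (0.31 ± 0.15, adjusted p = 0.205). It was called at 240 min against 90 min (0.76 ± 0.15, adjusted p = 0.0185). Derl3, a derlin of professional secretory cells, had 2 to 6 exonic reads per library and was not tested.

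The same ERAD genes carried more intronic reads at 240 min, where 4 of 9 rose (background 4.95%). Os9 encodes a lectin that hands misfolded glycoproteins to HRD1. Its introns had 13.1 and 10.5 CPM in Hypox libraries, 9.92 and 7.4 at 30 min, 9.24 and 10.1 at 90 min, then 22.1 and 24.1 at 240 min (0.97 ± 0.18, adjusted p = 0.00913). Its exonic reads had 46.6 and 62.1 CPM at 240 min, against 46 and 53.3 in Hypox libraries (0.12 ± 0.16, adjusted p = 0.679). The other 3 were Syvn1 (1.39 ± 0.29, adjusted p = 0.013), and Edem1 (0.73 ± 0.21, adjusted p = 0.0493) and Edem2 (0.90 ± 0.22, adjusted p = 0.0247), which trim mannose from misfolded glycoproteins. None of these 4 intronic calls against Hypox held in each fit that left out 1 library.

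Xbp1 encodes the UPR transcription factor whose mRNA is spliced by IRE1, and it lies at chr11:5420644-5425996 in mm9. It was the earliest member to rise, first in intronic reads. Its introns had 16.2 and 15.8 CPM in Hypox libraries, 27.5 and 36.5 at 30 min, 42.6 and 31.6 at 90 min, then 17 and 18.4 at 240 min. All 4 libraries of GH30 and GH90 lie above those of Hypox and GH240. The intronic change was 0.98 ± 0.19 at 30 min (adjusted p = 0.0197), 1.19 ± 0.19 at 90 min (adjusted p = 0.00353) and 0.14 ± 0.19 at 240 min (adjusted p = 0.678). Between 90 and 240 min it fell by 1.05 ± 0.19 (adjusted p = 0.00517). The 90 min call held with each library left out, with adjusted p up to 0.0379. The 30 min call was lost without the shallower GH30 library (0.78 ± 0.20, adjusted p = 0.133) and without either Hypox library (adjusted p = 0.125 and 0.126).

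Mature Xbp1 RNA had the same estimated change at 90 and 240 min, was called only at 240 min, and varied more between libraries. Its exonic reads had 102 and 58.6 CPM in Hypox libraries, 61 and 113 at 30 min, 167 and 167 at 90 min, then 193 and 144 at 240 min. The Hypox and GH30 libraries overlap, and the GH90 and GH240 libraries lie above them all. The change was 1.11 ± 0.29 at 90 min (adjusted p = 0.153) and 1.11 ± 0.29 at 240 min (adjusted p = 0.0368). The unadjusted limma p-values were 0.00326 and 0.00333, so only the adjustment over all genes separated the 2 times. Without the shallower Hypox library the 240 min change was 0.71 ± 0.30 (adjusted p = 0.238). The authors' deposited table gave a gene-body ratio of 2.1 at 90 min with an adjusted p of 0.000476. The recovered reads pool both splice forms of Xbp1, so spliced and unspliced mRNA were not analysed here.

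Creb3l3 encodes CREBH, an ER-bound transcription factor of hepatocytes that is cut and released like ATF6. It was the 1 member called lower against Hypox, in intronic reads at 90 min. Its introns had 15.9 and 11.7 CPM in Hypox libraries, 9.05 and 5.2 at 30 min, 5.31 and 6.44 at 90 min, then 15 and 11.2 at 240 min. The libraries at 30 and 90 min lie below all libraries of the other groups. The change was -0.98 ± 0.26 at 30 min (adjusted p = 0.0908) and -1.21 ± 0.26 at 90 min (adjusted p = 0.0177), and it rose by 1.13 ± 0.26 between 90 and 240 min (adjusted p = 0.0194). The 90 min call held only without the shallower Hypox library among the 4 fits that left out 1 library, and the change was between -1.43 and -0.99 in these. The rise between 90 and 240 min was called only without the shallower GH240 library (adjusted p = 0.0498), and was between 0.93 and 1.35 with adjusted p up to 0.139 in the 4 such fits. Its mature RNA had 37.5 and 39.7 CPM in Hypox libraries, 46.9 and 40.9 at 30 min, 35.8 and 29.7 at 90 min, then 33.5 and 27.5 at 240 min (-0.35 ± 0.14 at 240 min, adjusted p = 0.14).

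Of the ER stress sensor genes, Atf6 and Atf6b rose at 240 min in mature RNA and Ern1 in intronic reads. Atf6 had 24.5 and 23 exonic CPM in Hypox libraries, 21.1 and 21.8 at 30 min, 21.9 and 24.6 at 90 min, then 32.3 and 44.1 at 240 min (0.67 ± 0.15, adjusted p = 0.0196). Its introns had 55.5 and 35.7 CPM in Hypox libraries, 40.9 and 40.9 at 30 min, 47.1 and 44.4 at 90 min, then 90.6 and 85.2 at 240 min (0.98 ± 0.20, adjusted p = 0.0116). Atf6b, its close relative, had 6.39 and 4.8 exonic CPM in Hypox libraries, 5.14 and 5.71 at 30 min, 6.68 and 6.32 at 90 min, then 9.41 and 14.5 at 240 min (1.07 ± 0.21, adjusted p = 0.0124). In both genes the GH240 libraries lie above the other 6. Ern1, which encodes IRE1, had 17.5 and 18.9 exonic CPM in Hypox libraries, 16.8 and 18 at 30 min, 18.1 and 22 at 90 min, then 24.8 and 23.7 at 240 min. It was not called in exonic reads (0.41 ± 0.13, adjusted p = 0.0649) and rose in intronic reads (0.67 ± 0.18, adjusted p = 0.0358). The intronic call of Ern1 was lost in each of the 4 fits that left out 1 library.

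Wfs1, an ER membrane glycoprotein that restrains ATF6 signalling, had 4.73 and 3.26 exonic CPM in Hypox libraries, 3.16 and 3.54 at 30 min, 3.57 and 3.13 at 90 min, then 5.96 and 10.7 at 240 min. Its GH240 libraries differed by more than the rest (1.01 ± 0.27, adjusted p = 0.0371). Its introns had 1.53 and 0.85 CPM in Hypox libraries, 0.792 and 0.904 at 30 min, 1.25 and 0.776 at 90 min, then 4.95 and 4.3 at 240 min (1.92 ± 0.32, adjusted p = 0.00597). Creb3l2, another ER-bound factor that acts on secretory genes, had its highest intronic levels at 90 min without a call against Hypox, with 59.1 and 59.5 CPM in Hypox libraries, 43.4 and 81.3 at 30 min, 91.9 and 82.4 at 90 min, then 42.9 and 50.9 at 240 min. Its introns fell by 0.90 ± 0.25 between 90 and 240 min (adjusted p = 0.0398), a call lost in each of the 4 fits that left out 1 library, with adjusted p up to 0.203 over all alternatives.

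**Figure D3:**
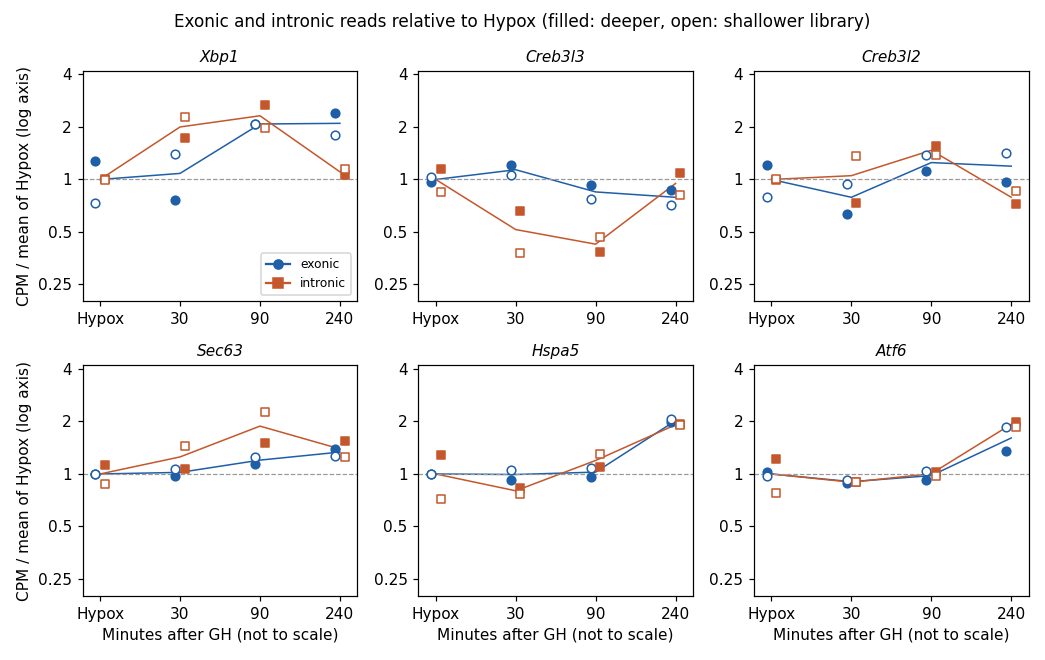
Exonic (blue circles) and intronic (orange squares) CPM of 6 members, each divided by the mean of its 2 Hypox libraries (y axis, log scale), by time after GH (x axis, not to scale); filled points are the deeper and open points the shallower library, and lines join means. Xbp1 introns are high at 30 and 90 min and back near 1 at 240 min, Creb3l3 introns are low at 30 and 90 min, and Hspa5 and Atf6 are high at 240 min in both.

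All 11 genes of the translocon, the signal peptidase and the COPII coat had both exonic GH240 libraries above both Hypox libraries, against 26.1% of all genes. Of these genes 8 rose, against 5.71% of all genes. Sec61a1, the pore of the translocon, had 55.4 and 48.9 CPM in Hypox libraries, 46.6 and 55.7 at 30 min, 47.6 and 56.3 at 90 min, then 72.6 and 81.1 at 240 min (0.56 ± 0.14, adjusted p = 0.0271). The small subunit Sec61g rose (0.56 ± 0.15, adjusted p = 0.0419), and Sec61b had 6.85 and 6.18 CPM in Hypox libraries, 6.79 and 8.04 at 30 min, 6.12 and 7.48 at 90 min, then 8.78 and 8.47 at 240 min, which was not called (0.40 ± 0.16, adjusted p = 0.126). The introns of Sec61b had 4.18 and 4.35 CPM at 240 min, against 1.98 and 1.2 in Hypox libraries (1.41 ± 0.26, adjusted p = 0.00818).

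Ssr1 and Ssr3 encode subunits of the translocon-associated protein complex. Ssr1 had 32.2 and 31.6 CPM in Hypox libraries, 29.6 and 32.9 at 30 min, 28.8 and 30.7 at 90 min, then 49.4 and 60.2 at 240 min (0.77 ± 0.13, adjusted p = 0.00504). Ssr3 had 58.1 and 56.7 CPM in Hypox libraries, 54.7 and 63 at 30 min, 56.5 and 62.7 at 90 min, then 86.8 and 84.5 at 240 min (0.58 ± 0.11, adjusted p = 0.0123). Spcs2, a subunit of the signal peptidase that removes the leader of secreted proteins, had 18.3 and 18 CPM in Hypox libraries, 17.9 and 19.9 at 30 min, 18.8 and 24 at 90 min, then 32.1 and 35.1 at 240 min (0.88 ± 0.14, adjusted p = 0.00448). These 3 genes stood above the earlier groups in both GH240 libraries. Its partner Spcs3 was not called (0.37 ± 0.11, adjusted p = 0.0625), nor was Tram1, a translocating-chain protein (0.19 ± 0.13, adjusted p = 0.369).

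Besides Xbp1 and Creb3l3, Sec63 was the member called at 90 min. It links the translocon to BiP. Its introns had 53.8 and 42.1 CPM in Hypox libraries, 50.9 and 69.2 at 30 min, 72.4 and 108 at 90 min, then 73.7 and 59.8 at 240 min. Both GH90 libraries lie above both Hypox libraries (0.89 ± 0.23, adjusted p = 0.0404). The call was lost when the shallower GH90 library was left out (0.61 ± 0.26, adjusted p = 0.321). It was also lost with the deeper Hypox pool left out (1.07 ± 0.29, adjusted p = 0.0702), and likewise with the shallower one (0.71 ± 0.29, adjusted p = 0.29). Its exonic reads had 47.3 and 47.3 CPM in Hypox libraries, 46.2 and 50.4 at 30 min, 54.2 and 59.4 at 90 min, then 66.2 and 60.1 at 240 min (0.41 ± 0.11 at 240 min, adjusted p = 0.0394).

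The COPII genes Sec23b and Sec24d encode parts of the inner coat that buds vesicles from the ER and picks their cargo. Sec23b had 18.9 and 10.6 CPM in Hypox libraries, 11.8 and 13.8 at 30 min, 14.4 and 15.9 at 90 min, then 29.5 and 39.2 at 240 min (1.26 ± 0.24, adjusted p = 0.00946). Sec24d had 28.5 and 20.5 CPM in Hypox libraries, 21.4 and 28.2 at 30 min, 20.9 and 24.8 at 90 min, then 41.2 and 59.4 at 240 min (1.03 ± 0.21, adjusted p = 0.0136). The Hypox libraries of Sec23b differed more than those at 30 or 90 min, and the GH240 libraries were above all of them.

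In intronic reads, which in total RNA come largely from unspliced transcripts, 1 of 42 members was called higher at 30 min (Xbp1), against 1.39% of all genes higher and 1.02% lower. At 90 min 2 were higher (Xbp1 and Sec63) and 1 lower (Creb3l3), against 3.28% and 4.31% of all genes. Without the deeper Hypox library 0 members were called at 30 min, and at 90 min 6 were higher (Hyou1, Xbp1, Sec61a1, Sec61g, Spcs2 and Sec23b) and 0 lower. Without the shallower Hypox library 2 were lower at 30 min (P4hb and Sec24d) and 0 higher, and at 90 min Xbp1 was higher and Creb3l3 lower. At 240 min 31 rose and 0 fell, against 4.95% and 6.25%. The members' median intronic change was -0.15 at 30 min, 0.25 at 90 min and 1.05 at 240 min. The all-gene medians were -0.02, -0.02 and 0. Without the deeper Hypox library the members' medians at 30 and 90 min were 0.24 and 0.53, and without the shallower one -0.57 and -0.13. Both GH240 libraries lay above both Hypox libraries in 40 of 42 members, against 28.6% of all genes. With the deeper Hypox library left out the count was again 31, and with the shallower one left out it was 0, where the members' median change was 0.78. It was 0 without the deeper GH240 library (median 0.97) and 12 without the shallower one. The 606 higher calls over all genes dropped to 35 and 102 in the 2 fits with 0 members.

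Exonic and intronic reads were both called at 240 min in 23 members. Exonic reads alone were called in 3 (Dnajb9, Xbp1 and Sec63) and intronic reads alone in 8 (P4hb, Edem1, Edem2, Os9, Ern1, Sec61b, Spcs3 and Tram1). The matching overlaps over all genes were not counted. The intronic change exceeded the exonic one in 38 of 42 members, and the share over all genes was not counted. Xbp1, Dnajb9, Hspa5 and Creb3l2 lay on the other side. Tested within libraries, the exonic minus intronic change was called in 0 of 42 members, with 10 at an unadjusted p under 0.05. Over all genes 0.0782% were called higher and 0% lower. The members' median difference was -0.37, beside -0.04 for all genes. It was -0.13 without the shallower Hypox library, in which the members' introns were low, and -0.64 without the deeper one. Without the deeper or the shallower GH240 library it was -0.21 or -0.61. The smallest adjusted p was that of Sec61b (0.146). For Xbp1 the difference was 0.97 ± 0.34 (adjusted p = 0.299). Sdf2l1 had the largest fitted intronic change from 14 and 20 reads at 240 min, against 4 and 0 reads in Hypox libraries, so its size depends on the added 0.1 CPM.

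**Figure D4:**
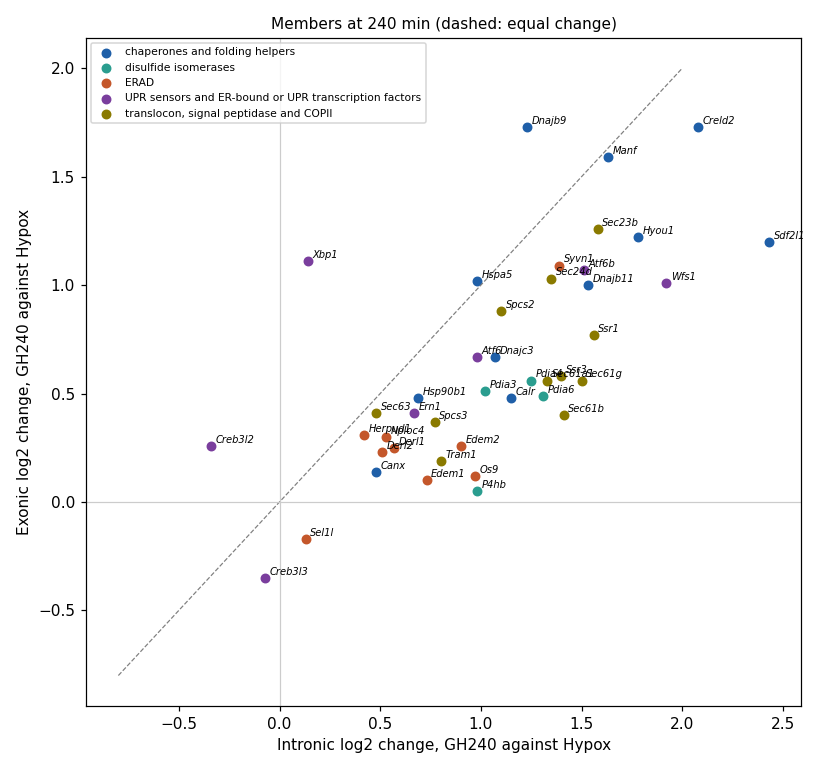
Exonic log2 change (y axis) against intronic log2 change (x axis) of the 42 tested members at 240 min against Hypox, coloured by role; each point is a gene and the dashed line marks equal changes. Most members lie below the line, and Xbp1 lies far above it with an exonic change of 1.11 and an intronic change of 0.14.

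Set against 90 min, 21 of 42 members rose at 240 min in exonic reads and 0 fell, against 2.79% and 2.49% of all genes. The 42 members' median change between these times was 0.50, and that of all genes -0.01. Of the 21, 19 were also called against Hypox, and Herpud1 and Spcs3 only against 90 min. The members called against Hypox and not against 90 min were Hsp90b1, Calr, Pdia3, Syvn1, Xbp1, Sec61g and Sec63. The GH240 libraries enter both comparisons, and without the deeper GH90 library 5 were called, without the shallower GH90 library 8 and without the shallower GH240 library 8. Between 30 and 90 min 0 of 42 were called in exonic reads, with 3 at an unadjusted p under 0.05, against 0% of all genes in each direction. In intronic reads 22 rose and 2 fell (Xbp1 and Creb3l2) between 90 and 240 min, against 5.62% and 6.02% of all genes. Between 30 and 90 min 0 were called, with 6 at an unadjusted p under 0.05 and a background of 0.0327% higher and 0.0409% lower. The members' median intronic change between 30 and 90 min was still 0.39, beside 0 for all genes, and it was above 0 in 38 of 42 members.

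Further genes of the same pathways were counted in lists chosen by function, also with earlier results of these data known. Over all genes 5.71% were called higher and 5.54% lower in exonic reads at 240 min. At 240 min in exonic reads 7 of 29 other folding enzymes rose, among them Fkbp11 (1.49 ± 0.29, adjusted p = 0.0107) and Fkbp14 (1.19 ± 0.25, adjusted p = 0.0143), both prolyl isomerases of the ER. Of 25 other ERAD genes 5 rose, led by Ubxn4 (0.81 ± 0.11, adjusted p = 0.00271) and Edem3 (0.99 ± 0.16, adjusted p = 0.00477). In translocation and glycosylation 13 of 28 rose, including Serp1 (1.15 ± 0.16, adjusted p = 0.00262), which stabilises membrane proteins at the translocon, and Srprb (1.33 ± 0.20, adjusted p = 0.00397), a subunit of the signal recognition particle receptor. In transport between ER and Golgi 21 of 43 rose, including the cargo receptor genes Tmed9 (1.10 ± 0.14, adjusted p = 0.0022) and Lman1 (0.75 ± 0.11, adjusted p = 0.00391). None of these 4 lists had a gene called lower. Among 17 other UPR signal genes 4 rose, including the sensor kinase gene Eif2ak3 (PERK, 0.75 ± 0.17, adjusted p = 0.0185) and Atf4 (0.63 ± 0.15, adjusted p = 0.0246), and 3 fell, Bbc3, Tmbim6 and Vldlr. Bbc3, a BH3-only gene that promotes cell death, changed by -1.90 ± 0.43 (adjusted p = 0.0197).

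Few of these pathway genes were called earlier. The COPII cargo gene Sec24b rose in introns at 30 min (1.01 ± 0.18, adjusted p = 0.0135) and at 90 min (1.66 ± 0.18, adjusted p = 0.000515), and in exons at 90 min (0.83 ± 0.12, adjusted p = 0.013). Ergic2, of the compartment between ER and Golgi, had intronic changes of 1.01 ± 0.17 at 30 min (adjusted p = 0.00939) and 1.14 ± 0.17 at 90 min (adjusted p = 0.00258), and an exonic one of 0.82 ± 0.16 at 90 min (adjusted p = 0.0469). The intronic calls of both genes at 90 min held with each library left out. At 30 min that of Sec24b was lost without the shallower GH30 library (0.79 ± 0.18, adjusted p = 0.088) and without the deeper or the shallower Hypox library (adjusted p = 0.0829 and 0.108). That of Ergic2 was lost without the shallower GH30 library (0.96 ± 0.21, adjusted p = 0.0616) and without the deeper Hypox library (0.87 ± 0.20, adjusted p = 0.105). Trib3, a target of the PERK branch, was lower in exons at 90 min (-1.50 ± 0.30, adjusted p = 0.0499). The exonic calls of these 3 genes at 90 min were lost in each fit that left out 1 library.

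The authors' deposited table, which holds their own ratios and adjusted p-values, called 20 members higher in gene-body reads at 240 min, against 2.81% of all listed genes, and all 20 were among the 26 called with limma. The 6 called with limma only were Hsp90b1, Calr, Pdia3, Pdia6, Sec61g and Sec63. At 90 min the authors' deposited table called 1 member higher, Xbp1, against 0.913% of genes, and at 30 min it called 0. In introns the authors' deposited table called 31 members higher at 240 min, against 2.41% of listed genes, of which 30 members were shared, with Dnajb9 only there and Edem1 only with limma. For Creb3l3 introns at 90 min the authors' deposited table gave a ratio of 0.425 with an adjusted p of 2.06e-05.

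Markers of other cell types that could bring secretory genes into the tissue were examined beside the 240 min result. Of 14 exocrine pancreas markers 12 were listed at 0, digestive enzymes among them, and the other 2 summed to 0.77 to 1.44 CPM at 240 min and 1.38 to 1.52 CPM in Hypox libraries. The plasma and B cell list summed to 65.7 to 83.5 CPM at 240 min and 78.4 to 80.6 CPM in Hypox libraries, with 0 of 6 tested called and Tnfrsf17 at 0. That list holds Sdc1, which hepatocytes also make. The 10 hepatocyte markers, which define the labelled tissue, summed to 27700 and 29200 CPM at 240 min, against 34900 and 35600 CPM in Hypox libraries, with 1 called lower. The cholangiocyte list of 6 summed to 14.5 and 22.8 CPM at 240 min, against 7.17 and 9.88 CPM in Hypox libraries, with 3 of 5 tested called higher. Sinusoidal endothelial markers summed to 136 and 146 CPM at 240 min, against 191 and 188 CPM in Hypox libraries, with 2 of 8 called lower. In the Kupffer cell, stellate cell, neutrophil and red blood cell lists 0 markers were called at 240 min. The part of the cholangiocyte and endothelial differences in the members' changes was not tested.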

How the data were processed

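Liver total RNA of 4 groups (Hypox, GH30, GH90, GH240) with 2 pooled libraries each was used. Per the submitters' processing notes, reads were handled with TopHat2, featureCounts and edgeR on mm9, with settings not stated there. The authors deposited group-mean FPKM for gene-body and intronic reads, with a ratio (fold) and an adjusted p-value per comparison, per the file headers. The library totals and whole reads behind each mean were recovered by integer arithmetic: 99.99% of gene-body and 94.1% of intronic values came out as whole reads, and in 1000 genes checked 1000 did so with these totals and 0 with totals shifted by 1000 reads. Reads were scaled by a median-of-ratios factor, genes were kept that reached 10 reads in 2 or more libraries, and log2(CPM + 0.1) of all 8 libraries was fitted with limma 3.58.1 (trended eBayes, R 4.3.3), and p-values were adjusted over the whole table (Benjamini-Hochberg). The fit was tested on simulated data for exonic reads of GH240 against Hypox over 13134 genes: it called 15 of 50 genes changed 1.5-fold, 42 of 50 changed 2-fold, all 50 at 3-fold and at 4-fold, and 6 unchanged genes. The median SE of a log2 change was 0.196 in exonic and 0.24 in intronic reads. Intronic comparisons between successive times were added after the data were seen. The members, their roles and the other lists were chosen with earlier results of these data known. Members are all accounted for by role. Of 38 called in any comparison, the 24 with the smallest adjusted p against Hypox were given with their values in every library. These values are exonic, intronic or both, so some members chosen by their intronic change have exonic values only. Hspa5, Xbp1, Atf6, Ern1, Creb3l3 and Sec61a1 were always among those described. Alternatives were pseudocounts, filters, scalings, voom, fits of 2 groups and leaving out each library.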

Additional observations from a re-analysis of the deposited data

Results flagged for a closer look

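Each of the following members differed between 90 and 240 min by the limma test of that difference, at an adjusted p under 0.05. The values are log2 changes of 240 min against 90 min. With each library of the 2 groups left out in turn, 5 of the 21 exonic calls held each time (Hspa5, Dnajb9, Dnajb11, Creld2 and Manf), and 3 of the 24 intronic calls (Dnajb11, Os9 and Wfs1). In exonic reads of chaperones and folding helpers the change was 0.99 for Hspa5, 1.3 for Hyou1, 1.65 for Dnajb9, 1.08 for Dnajb11, 0.69 for Dnajc3, 1.62 for Creld2, 1.44 for Manf and 1.33 for Sdf2l1. In exonic reads of disulfide isomerases the change was 0.59 for Pdia4 and 0.58 for Pdia6. In exonic reads of ERAD genes the change was 0.76 for Herpud1. In exonic reads of UPR sensors and factors the change was 0.7 for Atf6, 0.84 for Atf6b and 1.24 for Wfs1. In exonic reads of translocon, signal peptidase and COPII genes the change was 0.57 for Sec61a1, 0.87 for Ssr1, 0.52 for Ssr3, 0.66 for Spcs2, 0.47 for Spcs3, 1.16 for Sec23b and 1.12 for Sec24d.

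In intronic reads of chaperones and folding helpers the change was 0.73 for Hsp90b1, 1.41 for Hyou1, 1.62 for Dnajb11, 0.79 for Dnajc3 and 1.26 for Manf. In intronic reads of disulfide isomerases the change was 0.81 for Pdia3, 0.93 for Pdia4, 1.02 for Pdia6 and 1.36 for P4hb. In intronic reads of ERAD genes the change was 1.24 for Edem2, 0.78 for Derl1 and 1.24 for Os9. In intronic reads of UPR sensors and factors the change was 0.94 for Atf6, 1.13 for Creb3l3 and 2.12 for Wfs1. In intronic reads of translocon, signal peptidase and COPII genes the change was 1.23 for Sec61b, 1.35 for Ssr1, 1 for Ssr3, 0.75 for Spcs3, 0.73 for Tram1, 1.05 for Sec23b and 1.36 for Sec24d. The intronic reads of 2 members were lower at 240 than at 90 min, with changes of -1.05 for Xbp1 and -0.9 for Creb3l2.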

How the results depend on the processing

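With 2 libraries a group, leaving out 1 library lowered most counts of called members, and the lone library left was taken to vary like the other groups. Exonic higher calls at 240 min were 8 to 19 of 26 against Hypox in these fits, and 5 to 17 of 21 against 90 min. Intronic higher calls were 0 to 31 at 240 min against Hypox, 1 to 6 at 90 min and 0 to 1 at 30 min, with 0 to 1 lower at 90 min and 0 to 2 lower at 30 min. Between 90 and 240 min intronic calls were 4 to 10 higher and 0 to 1 lower, and between 30 and 90 min 0 to 1 higher. Fitting only the 2 groups compared gave 17 exonic calls at 240 min against Hypox and 0 intronic calls at 30 min. Keeping genes with at least 1 read in any library gave 1 higher intronic call at 90 min and 1 lower between 90 and 240 min. Requiring 50 reads in 2 libraries gave 1 member called for an exonic change below its intronic one. Another pseudocount, the voom form and the other scalings kept every count of called members within 1.5 times its value. Scaling by library totals moved the all-gene median intronic change at 30 min to -0.14 and the members' to -0.28, and at 240 min made 65.3% of the exonic calls over all genes higher, against 50.8%. In intronic reads at 30 min it made 40.9% of all calls higher, against 57.6%. Over all genes, exonic and intronic changes differed in 9 genes, all higher in exons, against 181 higher and 68 lower with a pseudocount of 1, and 128 higher and 47 lower with at least 50 reads. No called member changed direction under any alternative run, and calls were lost in part of them. The cause of each loss was not tested. No paired analysis was possible because the recovered libraries carry no pool number.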
